A study of Mus musculus with 28 samples.

Results

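Frontal cortex of wild-type mice (genotype +/+, C57BL/6 background) aged 20 months was profiled in 8 of the 28 libraries of the series. They are the libraries whose titles carry the genotype +/+, and are called WT 1 to WT 8 after their numbers. The other 20 libraries carried the Q331K knock-in allele of TDP-43 on 1 or both chromosomes and were not used, so no genotypes were compared. Polyadenylated RNA from snap-frozen tissue was sequenced from stranded libraries. Each library has a number of its own, but the labels do not state whether the numbers stand for different animals, and they give neither sex nor time of collection nor batch, so the spread between libraries described here may be partly technical. Total counts ran from 46549074 to 64080942 per library, with a median of 52980536. A level of 1 CPM (counts per 1000000 counts of a library) thus rested on at least 46.5 reads. Though the labels give no sex, genes on chromosome Y held 0.0174 to 0.0203% of counts in each of the 8 libraries. Of these genes, 4 reached a mean of 1 CPM.

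The frontal cortex is built of glutamatergic pyramidal neurons arranged in layers, GABAergic interneurons, astrocytes, myelinating oligodendrocytes and their precursors, microglia, and the cells of vessels and meninges. The striatum and the olfactory bulb lie next to it, and choroid plexus and ependyma line the ventricles of the brain. RNA of the whole tissue pools these cells, so fewer cells of a type and less RNA per cell cannot be told apart. Levels are given in CPM as mean ± SD over the 8 libraries, and levels of different genes are compared as CPM per kb of exon, while CPM alone ranks genes by their share of counts. The spread of a gene is given as its biological coefficient of variation (CV), the SD between libraries in percent of the mean after counting noise is removed. With a single group there is no test between groups, and these values are descriptions. Counts of list members that were highest, lowest or above their mean in a library are given without the same share over all genes.

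Fos, Nr4a1 and Nr4a2, transcription factor genes that neuronal activity switches on, are described below because the first and second stood high in the same libraries and Nr4a2 stood high in others. The 250 bases before the RefSeq start of each, on GRCm38.p6, are printed 5′ to 3′ so that the promoters can be read side by side. Capitals mark each TGACG or its reverse complement CGTCA, the core of the cyclic AMP response element, searched on both strands. The Fos stretch is chr12:85473640-85473889 on the plus strand and holds 2 matches. That of Nr4a1 is chr15:101266596-101266845 on the plus strand and holds 4. That of Nr4a2 is chr2:57124004-57124253 on the minus strand and holds 4.
Fos: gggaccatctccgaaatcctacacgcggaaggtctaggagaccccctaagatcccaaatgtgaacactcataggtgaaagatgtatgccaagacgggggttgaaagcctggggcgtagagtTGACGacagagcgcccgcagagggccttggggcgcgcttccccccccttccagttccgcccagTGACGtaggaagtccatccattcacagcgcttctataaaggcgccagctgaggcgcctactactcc
Nr4a1: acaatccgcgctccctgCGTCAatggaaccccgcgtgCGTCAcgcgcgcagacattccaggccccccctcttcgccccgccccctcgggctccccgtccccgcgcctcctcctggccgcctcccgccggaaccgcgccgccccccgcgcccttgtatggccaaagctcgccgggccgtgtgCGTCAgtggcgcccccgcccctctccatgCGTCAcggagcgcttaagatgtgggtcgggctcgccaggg
Nr4a2: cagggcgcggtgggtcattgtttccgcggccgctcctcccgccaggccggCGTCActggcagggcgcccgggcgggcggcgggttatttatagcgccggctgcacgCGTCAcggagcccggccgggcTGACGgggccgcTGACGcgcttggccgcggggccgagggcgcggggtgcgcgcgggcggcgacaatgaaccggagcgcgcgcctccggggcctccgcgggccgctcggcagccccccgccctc
In windows from 250 bases before to 50 bases after a start, 20.8% of 32851 promoters held the motif. Of the 28 immediate early genes listed, 22 had at least 1 promoter in the RefSeq table, 35 promoters in all, and 21 of these held the motif (60.0%). Counted per gene, 18 of the 22 held it in at least 1 promoter, against 23.0% of 27025 genes in the table, and genes differ in their number of promoters. A match describes the letters and is not a mapped binding site.

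The 6 highest levels per length belonged to genes of the mitochondrial genome. Of 25900 gene identifiers, 13897 had a mean of at least 1 CPM, 13310 of them protein-coding, and 13516 reached 1 CPM in each library. At least 10 CPM was reached by 10108 genes, 100 CPM by 2288 and 1000 CPM by 71, while 6288 had no count in any of the 8 libraries. The 20 most abundant genes took 10.5 ± 0.327% of all counts (SD, n = 8), and the 1000 most abundant took 49.98 ± 0.128%.

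The highest of all was mt-Co1, the mitochondrially encoded catalytic subunit of cytochrome c oxidase. It ran from 25084 CPM in WT 7 through a median of 26360.0 to 27811 in WT 5, and its level per length was 17046 ± 654 CPM per kb. Cytochrome b (mt-Cytb) followed at 9717 CPM per kb, then the complex I subunit genes mt-Nd1 at 8139, mt-Nd2 at 5334, mt-Nd5 at 3444 and mt-Nd4 at 3027. Mitochondrial genes together held 6.14 ± 0.243% of counts. The remaining 7 mitochondrial protein genes were counted at means of only 5.34 to 72.9 CPM. Part of the mitochondrial genome has near-identical copies in nuclear chromosomes, as background, so the low values are uncertain. Exons of mt-Nd5 and mt-Nd6 overlap on opposite strands, and the strand setting of the counting is not given in the sources used here.

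Among nuclear genes, calmodulin, the calcium sensor of neurons, was represented among the 20 highest genes per length by Calm2 at 1169 ± 30.9 CPM per kb and Calm3 at 579 ± 11.0. Neurogranin (Nrgn), which binds calmodulin in dendritic spines, stood at 765 ± 30.9 CPM per kb. Camk2a, the kinase that calmodulin activates at excitatory synapses, lay below these 20 at 518 ± 22.1 CPM per kb and ran from 3618 CPM in WT 3 through a median of 3874 to 4098 in WT 5. The axonal motor gene Kif5a stood at 683 ± 27.6 CPM per kb and the vesicle fusion gene Snap25, also below the 20, at 527 ± 22.8. Carboxypeptidase E (Cpe), which trims neuropeptides, was at 857 ± 53.2 CPM per kb and Sparcl1, a secreted matrix gene of astrocytes, at 765 ± 15.9. Cystatin C (Cst3) and ferritin heavy chain (Fth1) were at 754 ± 93.0 and 647 ± 74.3 CPM per kb, and both had their highest value in WT 8.

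Snrpn, a gene of an imprinted chromosomal region, took 864 ± 26.6 CPM. Its 1466 CPM per kb rests on the short span deposited for it, and with all reference exons as the length it was 166. The long noncoding RNAs Meg3 and Snhg11 were among the 20 genes with most counts. Meg3 ran from 5998 CPM in WT 8 through a median of 6657 to 7798 in WT 5, and Snhg11 from 3331 CPM in WT 7 through a median of 3634 to 4222 in WT 6. Both had their highest values in WT 5 and WT 6. Of the 20 genes highest by CPM, 11 were also among the 20 highest per length.

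**Figure D1:**
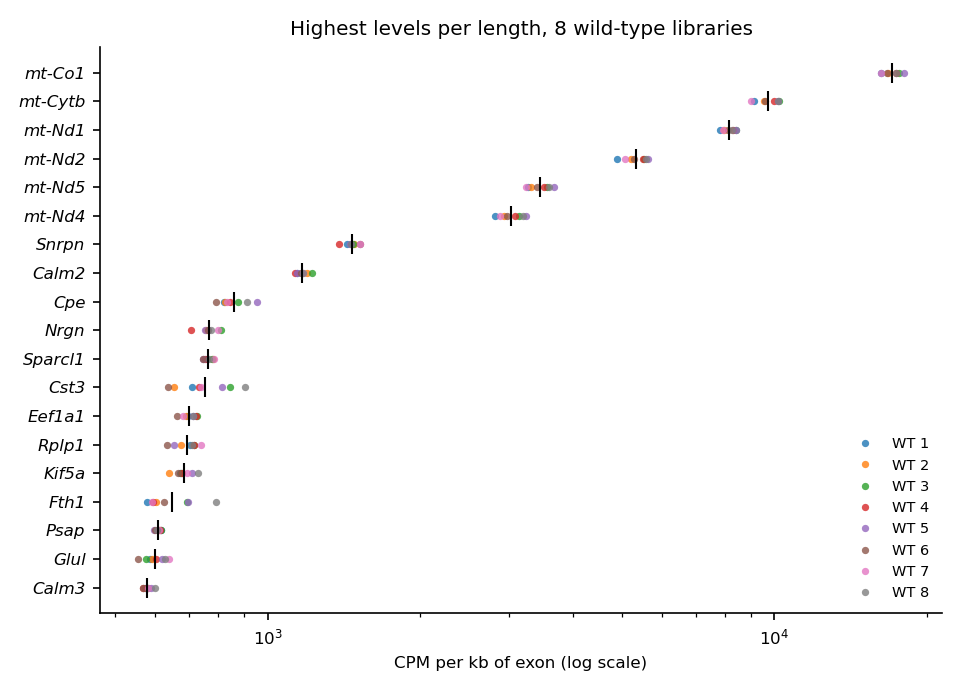
CPM per kb of exon (log axis) of 19 of the 20 genes with the highest mean level per length; each point is a wild-type library (n = 8, coloured by library) and the black bar is their mean. The 6 mitochondrial genes lie highest, with means of 3027 and above, and the nuclear genes have means of 579 to 1466.

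Markers of excitatory neurons had the highest median of 24 marker lists. It was 45.1 CPM per kb, against 6.19 over the 13761 genes of at least 1 CPM with a known length. The vesicular glutamate transporter gene Slc17a7 ran from 1099 CPM in WT 3 through a median of 1129 to 1235 in WT 1, a level of 212 ± 8.20 CPM per kb. The summed level of the 9 excitatory markers differed by a factor of only 1.08 between the highest and the lowest library. Upper-layer markers had a median of 9.24 CPM per kb, led by 6330527O06Rik (reference name Lamp5) at 71.9. Deep-layer markers had a median of 5.44 CPM per kb, led by Rprm at 28.3. Fezf2, a fate gene of subcortical projection neurons, stood at 8.95 ± 1.33 CPM per kb.

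GABAergic neurons were marked by the GABA synthesis genes Gad1 and Gad2, at 55.9 ± 3.65 and 30.6 ± 2.79 CPM per kb, and the vesicular transporter gene Slc32a1 at 28.7 ± 2.37. Neuropeptide genes were the highest of the interneuron subclass list: somatostatin (Sst) at 247 ± 15.9 CPM per kb, cholecystokinin (Cck), which pyramidal cells also make, at 179 ± 10.7, and neuropeptide Y (Npy) at 121 ± 11.2. The calcium-binding protein gene Pvalb of fast-spiking cells was at 67.8 ± 6.81 CPM per kb and Vip, of another subclass, at 14.9 ± 1.41. Calb2, a calcium-binding protein gene that the olfactory bulb also expresses, was the most uneven of these named genes. It ran from 6.13 CPM in WT 6 through a median of 9.52 to 21.8 in WT 2, with a biological CV of 45.5%.

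Astrocyte markers had a median of 24.5 CPM per kb. Glutamine synthetase (Glul), which recycles glutamate, led them at 599 ± 27.7, though its exons overlap those of Teddm2 on the other strand. Aldoc, a glycolytic enzyme gene, was at 276 ± 8.84 CPM per kb and the glutamate transporter gene Slc1a2 at 258 ± 19.8. Gfap, the intermediate filament gene of reactive and white-matter astrocytes, ran from 73.0 CPM in WT 7 through a median of 96.7 to 134 in WT 8.

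Oligodendrocyte markers had a median of 22.1 CPM per kb, with myelin basic protein (Mbp) at 233 ± 38.7 and the myelin gene Mobp at 127 ± 37.2. Precursor markers were lower, at a median of 1.74 CPM per kb over the 10 of 11 found in the table, with the matrix gene Tnr at 12 ± 0.847 and the growth factor receptor gene Pdgfra at 5.08 ± 0.240. Microglial markers had a median of 7.95 CPM per kb. The lysosomal protease gene Ctss stood at 66.5 ± 4.24 and the complement gene C1qb at 39.4 ± 2.34. Genes that mark activated microglia were lower, at a median of 0.436 CPM per kb. Of these 12 genes, 6 reached 1 CPM, near the share of all identifiers (13897 of 25900). Among the 6 that did not were Cst7 at 0.288 ± 0.110 CPM, Clec7a at 0.442 ± 0.210 CPM and Itgax at 0.425 ± 0.184 CPM. The receptor kinase gene Axl at 11.6 CPM per kb and the lysosomal gene Cd68 at 6.39 stood higher on that list.

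Endothelial markers had a median of 5.74 CPM per kb, led by the glucose transporter gene Slc2a1 at 34.8 ± 4.64, and mural markers a median of 2.19, led by Rgs5 at 24.8 ± 1.28 and Vtn at 24.6 ± 1.35. Markers of tissues beyond the cortex differed in level. The median was 0.137 CPM per kb for 5 olfactory bulb genes, 0.0684 for 14 choroid plexus genes, 0.139 for 6 hippocampal genes and 1.00 for 5 ependymal genes. Thalamic markers were higher, at a median of 3.42 CPM per kb, and 4 of 4 reached 1 CPM. Of 6 genes of cerebellum and hindbrain, 0 reached 1 CPM, beside 13897 of all 25900 identifiers. Striatal markers were higher still, at a median of 4.80 CPM per kb, with the sodium channel subunit gene Scn4b at 47.7 ± 16 and Ppp1r1b (DARPP-32, a phosphatase inhibitor downstream of dopamine) at 41.1 ± 18.4. Some of these genes are also expressed in cortical neurons, as background. Blood markers had a median of 12.5 CPM per kb, with the hemoglobin gene Hbb-b1 (reference name Hbb-bs) at 67.9 ± 26.4, and near-identical hemoglobin copies make the split between them uncertain.

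**Figure D2:**
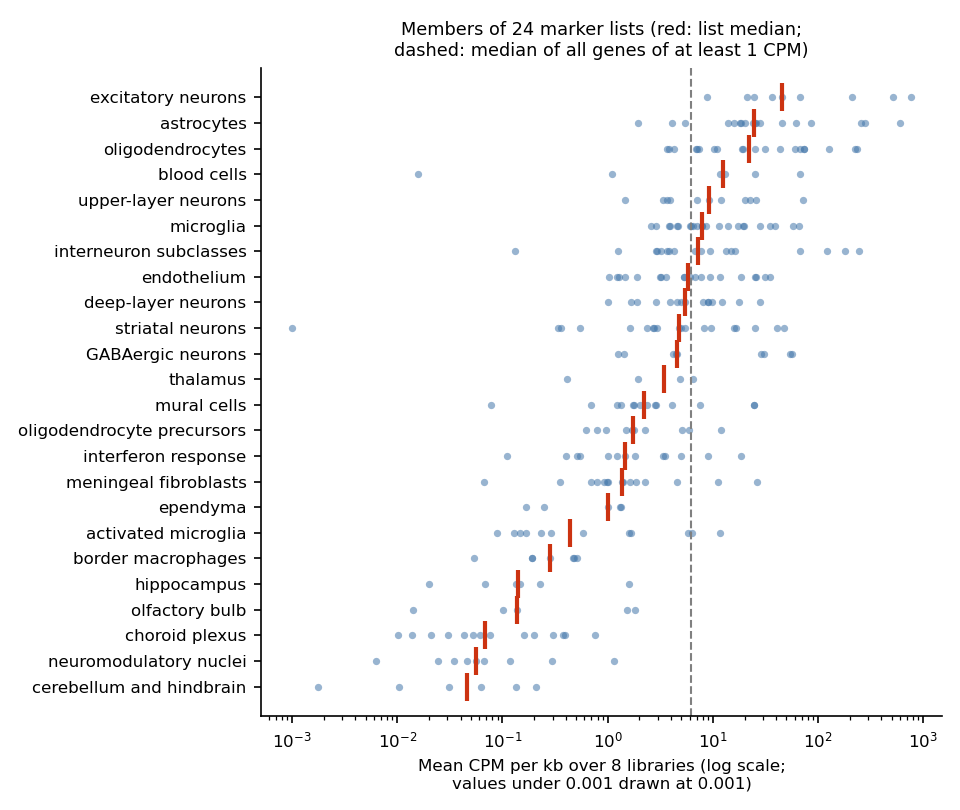
Mean CPM per kb (log axis) of the measured members of 24 marker lists over 8 wild-type libraries; each point is a gene, the red bar is the list median and the dashed line is the median of all genes of at least 1 CPM (6.19). Excitatory neuron, astrocyte and oligodendrocyte lists have the highest medians, 45.1, 24.5 and 22.1, and the cerebellum and hindbrain list the lowest, 0.0465.

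Transmitter receptor genes are given as shares of their family per length. AMPA receptor subunit genes, which carry most fast excitation, summed to 182 ± 4.27 CPM per kb. Gria2, whose subunit limits calcium entry, made up 37.6 ± 0.937% of this sum, Gria1 30.5 ± 1.01%, Gria3 19.9 ± 0.399% and Gria4 12 ± 0.341%. Among NMDA receptor genes the obligatory subunit gene Grin1 held 69.8 ± 1.28% of the sum per length, Grin2c 14.9 ± 1.24%, Grin2b 5.52 ± 0.459% and Grin2a 3.15 ± 0.267%. The shares of Grin2a and Grin2b depend on the length: over all reference exons these genes were at 1.02 and 1.42 CPM per kb, against 2.44 and 4.28 over the exons within the deposited span.

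Grik5 held 58.8 ± 1.26% of the kainate receptor sum and Grik3 20.4 ± 1.14%. Among metabotropic glutamate receptor genes Grm3, which astrocytes also express, held 31.6 ± 2.30%, Grm5 23.3 ± 0.794% and Grm2 16.9 ± 1.45%. In the GABA-A receptor sum Gabra3 held 16.9 ± 0.687%. The median biological CV was 3.43% for AMPA, 5.10% for kainate and 5.68% for GABA-A subunit genes, 7.84% for NMDA subunit genes and 8.13% for metabotropic receptor genes, beside 4.58% over all genes of at least 1 CPM.

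Most genes differed little between the 8 libraries. The biological CV of the 13897 genes of at least 1 CPM was 2.85% at the 25th percentile, 7.65% at the 75th and 17.1% at the 95th. A biological CV of at least 20% was reached by 472 genes (3.4%), at least 50% by 59 and at least 100% by 14.

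The 15 genes with the smallest CV among the 4579 genes of at least 50 CPM spanned 0.786 to 1.25%, beside a median CV of 3.96% over those genes. Smcr8, partner of the C9orf72 protein in autophagy, had the smallest CV. It ran from 50.8 CPM in WT 3 through a median of 51.6 to 52.1 in WT 6, though its exons overlap Shmt1 on the other strand. Psap, the precursor gene of the saposins that activate lysosomal lipid breakdown, ran from 1636 CPM in WT 5 through a median of 1678 to 1693 in WT 1. After Smcr8 in order came the mitochondrial gene Dnajc11 at 60.8 ± 0.537 CPM, the heterochromatin protein gene Cbx5 at 243 ± 2.57, the microtubule end-binding gene Mapre2 at 254 ± 2.78 and the RNA-binding protein gene Hnrnpa3 at 96.8 ± 1.10. The kinase gene Pdpk1, the coatomer gene Copa (its exons overlap Ncstn), Letm1, Elmo1, Fam168a, Tapt1, Akap11 and Plekhb2 were among the rest. For 6 of the 15, Smcr8, Dnajc11, Hnrnpa3, Letm1, Elmo1 and Tapt1, the spread did not exceed counting noise. Their places in this order therefore cannot be told from counting noise. The next gene after the 15, Bcl11a, had a CV of 1.26%.

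The 24 listed genes linked to amyotrophic lateral sclerosis or frontotemporal dementia had a median biological CV of 3.69%, beside 4.58% over all genes of at least 1 CPM. Their median level was high, at 46.7 CPM per kb. The 1000 most abundant genes, with a median of 56.0 CPM per kb, had a similar median biological CV of 3.63%. Of the 24 listed genes, 0 reached 20%, a count close to the 3.4% of all genes. Tardbp, the gene of TDP-43, ran from 296 CPM in WT 1 through a median of 320.0 to 338 in WT 6 and had a biological CV of 4.22%, with exons that overlap Masp2 on the other strand. The tau gene Mapt was at 588 ± 10.9 CPM. Kif5a was the highest of this list per length, at the level given above, and the autophagy receptor gene Optn the lowest, at 5.66 ± 0.404 CPM per kb.

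Striatal transcripts differed widely. Of the 17 striatal markers that reached 1 CPM, 16 had a biological CV of at least 20%, against 3.4% of all genes, and the list median was 62.3%. Without WT 3 the count was 14, against 3.43% of all genes, and the median 46.1%. The summed level ran from 128 CPM per kb in WT 2 to 365 in WT 3, and WT 4 was next at 258. WT 3 held the highest value of 13 members and WT 4 of 4, while 13 members were lowest in WT 2. The same libraries were thus high or low for most of the list.

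The dopamine receptor gene Drd2 ran from 1.21 CPM in WT 2 through a median of 2.39 to 14.4 in WT 3, and Drd1a (reference name Drd1) from 11.1 CPM in WT 2 through a median of 14.4 to 36.4 in WT 3. WT 3 and WT 4 were the highest libraries for both of these receptor genes. Adora2a, the adenosine receptor gene of the indirect pathway (chromosome 10, 75316943 to 75334788, plus strand, GRCm38), ran from 3.06 CPM in WT 2 through a median of 4.71 to 24.6 in WT 3. The peptide precursor gene Penk, which is not on the list, ran from 43.2 CPM in WT 6 through a median of 52.4 to 153 in WT 4. Pdyn, another opioid precursor gene, was the list member under 20%, with a biological CV of 15.6%. The excitatory list lay -0.03 from its mean in WT 3 and -0.10 in WT 4 on the log2 scale, while the striatal list lay 1.35 and 0.93 above its mean. Deep-layer markers lay 0.16 above their mean in WT 3, where 8 of 15 were highest, and -0.12 from it in WT 4, where 7 were lowest. Upper-layer markers lay -0.15 from their mean in WT 3, where 6 of 11 were lowest, and 0.11 above it in WT 4. The part of adjoining striatal tissue in these differences was not tested.

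Olfactory bulb markers stood apart in WT 2. Their summed level was 9.25 CPM per kb there, 4.81 in WT 4 and 1.63 in the lowest library. Cdhr1, a cadherin gene of mitral cells, ran from 1.83 CPM in WT 7 through a median of 4.51 to 16.4 in WT 2, with 12.5 CPM in WT 4. Doc2g, of a family of calcium-binding vesicle proteins, ran from 3.47 CPM in WT 7 through a median of 4.29 to 13.4 in WT 2, and Eomes, a transcription factor gene of mitral and tufted cells, had 2.62 CPM in WT 2 against a median of 0.256. Fabp7, a fatty acid-binding protein gene of glia, was also highest in WT 2, at 34.5 CPM, and next in WT 4, at 19.5, with a median of 12. The choroid plexus water channel gene Aqp1 was at 5.53 CPM in WT 2 and at 0.225 to 0.750 in the other 7, while 11 of 14 choroid plexus genes did not reach a mean of 1 CPM. Of the 3 that did, 2 were highest in WT 4 and 1 in WT 2.

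Meningeal fibroblast genes were also highest in WT 2, and lowest in WT 6. Of 14 members that reached 1 CPM, 11 had a biological CV of at least 20%, against 3.4% of all genes. Of the same members, 11 had their highest value in WT 2 and 11 their lowest in WT 6. The proteoglycan gene Fmod ran from 3.33 CPM in WT 6 through a median of 7.40 to 13 in WT 2, and the transporter gene Slc47a1 from 1.59 CPM in WT 4 through a median of 2.44 to 5.19 in WT 2. Blood genes separated the libraries in another way. Hbb-b1 was at 86.4 CPM in WT 7, 75.3 in WT 8 and 63.1 in WT 5, and at 34.5 to 46.3 in the other 5. The 5 blood genes that reached 1 CPM each had a biological CV of at least 20%, against 3.4% of all genes.

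**Figure D3:**
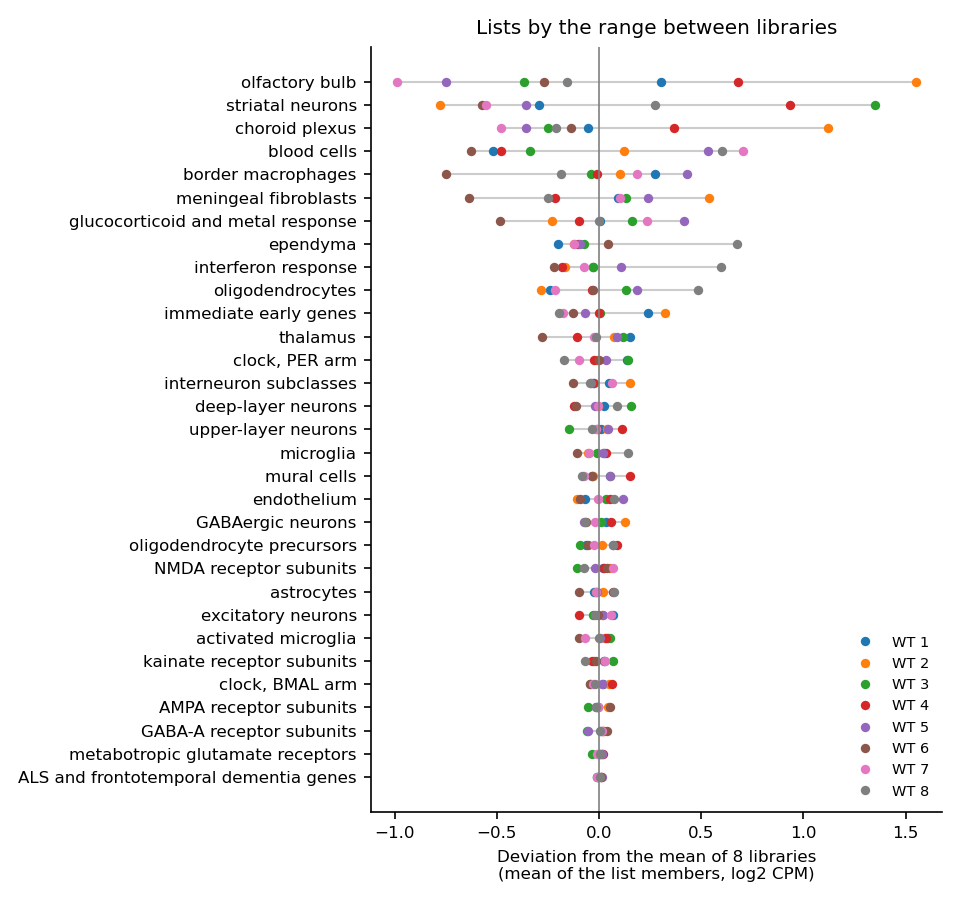
Deviation of each list from its own mean over 8 wild-type libraries (log2 CPM, averaged over members of at least 1 CPM, lists with 2 or more such members), ordered by range; each point is a library. The striatal list reaches 1.35 in WT 3 and the olfactory bulb list 1.55 in WT 2, while the list of genes linked to amyotrophic lateral sclerosis and frontotemporal dementia spans 0.03.

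Myelin genes varied together. All 20 oligodendrocyte markers had their highest value in WT 8, and 12 had their lowest in WT 2. The summed level ran from 837 CPM per kb in WT 2 to 1462 in WT 8, a factor of 1.75. Mobp, a gene of compact myelin (chromosome 9, 120149742 to 120181484, plus strand), ran from 602 CPM in WT 2 through a median of 769 to 1319.6 in WT 8. Mbp ran from 1638 CPM in WT 2 through a median of 1929.6 to 2586 in WT 8, the raft protein gene Mal from 145 CPM in WT 2 through a median of 175 to 301 in WT 8 and the transferrin gene Trf from 189 CPM in WT 2 through a median of 231 to 364 in WT 8. A biological CV of at least 20% was reached by 7 of 20, among them Mobp at 29.3%, against 3.4% of all genes. Without WT 8 it was reached by 2 of 20, against 3.32% of all genes. Precursor markers spread less, with a summed level of 29.8 to 34.1 CPM per kb.

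WT 8 was also the highest library for each of the 11 interferon-response genes that reached 1 CPM. A biological CV of at least 20% was reached by 5 of them, against 3.4% of all genes, and by 0 without WT 8, against 3.32%. The transcription factor gene Irf7, whose exons overlap Phrf1, was at 3.89 CPM there against a median of 1.60. The antiviral membrane protein gene Ifitm3 was at 9.10 CPM against 5.79. The complement gene C4b, named after its values were seen, ran from 18.5 CPM in WT 7 through a median of 33.1 to 63.8 in WT 8, and was at 54.0 CPM in WT 5. Microglial markers lay 0.14 above their mean in WT 8 on the log2 scale, and their summed level ran from 355 to 422 CPM per kb. The ependymal transcription factor gene Foxj1 was highest in WT 8 too, at 5.74 CPM against a median of 3.34. Whether these differences share a source was not tested.

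Immediate early genes, which neuronal activity induces within minutes, were highest in WT 1 and WT 2. Of 28 members, 26 lay above their mean in WT 1 and 25 in WT 2. A biological CV of at least 20% was reached by 13 of 28, against 3.4% of all genes, and the list median was 19.3%. Without WT 2 the count was 9 of 28, against 3.31% of all genes. Arc, which regulates AMPA receptor trafficking (chromosome 15, 74669083 to 74672570, minus strand), had 571 CPM in WT 1 and 593 in WT 2, and 383 to 489.7 in the other 6. Fos had 65.1 and 84.3 CPM in WT 1 and WT 2, and 41.4 to 52.6 in the other 6. Nr4a1 had 157 and 167 CPM, and 93.2 to 123 in the other 6. For Arc, Fos and Nr4a1 the values of WT 1 and WT 2 thus lay above those of the other 6. These 2 libraries were singled out on the same values, so the gap is a description only. How many of the 28 members, or of all genes, split in this way is not given here. WT 2 held the highest value of 15 members and WT 1 of 3.

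Nr4a2, the relative of Nr4a1 whose promoter is printed above, followed another order. It was at 56.3 CPM in WT 3 and 48.5 in WT 4, and at 24.5 to 37.4 in the other 6. Homer1, which makes an activity-induced scaffold form, ran from 192 CPM in WT 6 through a median of 263 to 337 in WT 5. Bdnf, a growth factor gene, and Ier5 were steadier, with biological CVs of 8.66% and 7.21%.

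The 10 genes of the Per arm of the circadian clock had a median biological CV of 10.9%, above the 4.58% of all genes of at least 1 CPM. Without WT 3 the median was 6.14%, beside 4.63% over all genes. Of these 10, 0 reached 20%, a count close to the 3.4% of all genes. The repressor gene Per1 ran from 117 CPM in WT 8 through a median of 146 to 183 in WT 1, and Dbp, a rhythmic transcription factor gene whose exons overlap Sphk2, from 75.8 CPM in WT 2 through a median of 79.6 to 103 in WT 3. In the opposite arm the activator gene Arntl, also called Bmal1, ran from 29.1 CPM in WT 7 through a median of 32.8 to 35.4 in WT 4, and Clock from 92.0 CPM in WT 1 through a median of 96.8 to 101 in WT 8.

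Genes induced by glucocorticoids or metals were highest in WT 5 and lowest in WT 6. Of 12 members of at least 1 CPM, 8 were highest in WT 5 and 9 lowest in WT 6, and 5 had a biological CV of at least 20%, against 3.4% of all genes. Without WT 6 the count was 3, against 3.23% of all genes. Fkbp5, a chaperone gene of the glucocorticoid receptor, ran from 26.0 CPM in WT 6 through a median of 38.1 to 50.2 in WT 5, and the transcription factor gene Zbtb16 from 34.0 CPM in WT 6 through a median of 48.0 to 78.6 in WT 5. Plin4, a lipid droplet coat gene whose exons overlap Hdgfl2, was at 21 CPM in WT 5 and 19.5 in WT 7, and at 3.05 to 10.8 in the other 6. Hif3a, a regulator of the hypoxia response, was highest in the same libraries, at 17.8 and 16.8 CPM.

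Levels of 9 lists were correlated in 36 pairs across the 8 libraries, by two-sided exact permutation over all 40320 pairings. By Pearson and by Spearman, 0 of 36 pairs had an adjusted p under 0.05, while 3 and 1 had an unadjusted p under 0.05. Oligodendrocyte with endothelial markers gave r = 0.73 (exact permutation p = 0.0379, adjusted p = 0.455) and rho = 0.79 (exact permutation p = 0.0279, adjusted p = 0.517), and r was 0.67 without WT 2 and WT 8. The choroid plexus level averaged only the 3 of 14 members that reached a mean of 1 CPM. Among these, Aqp1 was at 5.53 CPM in WT 2 and at 0.225 to 0.750 in the other libraries. It thus entered the level only through WT 2, which limits both choroid plexus correlations. The choroid plexus list with immediate early genes gave r = 0.75 (exact permutation p = 0.0331, adjusted p = 0.455) and rho = 0.62 (exact permutation p = 0.115, adjusted p = 0.517), and r was 0.59 without WT 2 and WT 4, or 0.42 without WT 2 alone. The choroid plexus list with the Bmal1 arm of the clock gave r = 0.71 (exact permutation p = 0.0329, adjusted p = 0.455) and rho = 0.67 (exact permutation p = 0.0831, adjusted p = 0.517), and r was 0.15 without WT 2 and WT 4.

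The 20 genes with the largest biological CV among the 11542 genes of at least 5 CPM spanned 50.9 to 146%. Of these, 5 were striatal markers, among them Lrrc10b, Tmem90a (reference name Syndig1l), Adora2a and Rgs9. Penk and the retinoid receptor gene Rxrg were also among them and, like those 4, had their highest values in WT 3 and WT 4. Cdhr1, Doc2g, Fabp7, the hemoglobin gene Hba-a2 and Plin4 belonged to the 20 as well. Leaving out WT 3 lowered the biological CV of Lrrc10b from 115 to 55.0%, that of Tmem90a from 103 to 47.2% and that of Rxrg from 76.8 to 44.6%. Without WT 3 that of Adora2a fell less, from 92.8 to 70.2%, and that of Rgs9 from 63.4 to 55.7%. That of Penk rose from 52.4 to 56.4%. Leaving out WT 2 lowered that of Doc2g from 59.4 to 18.7% and that of Fabp7 from 52.7 to 24.2%. Cdhr1 fell less without WT 2, from 78.9 to 69.9%. Drd1a came next among all 8 libraries, at 48.9%.

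The others belonged to no marker list. Gapdh, a glycolytic enzyme gene often used as a reference transcript (chromosome 6, 125161853 to 125166467, minus strand), was at 10.6 CPM in WT 1 and 11.9 in WT 7, and at 103 to 203 in the other 6. Its highest library exceeded its lowest 19.1-fold. Another 5 glycolytic genes, named after their values were seen, did not fall with it: aldolase (Aldoa) was at 1227 ± 61.2 CPM, Tpi1 at 539.8 ± 21.8, Pgk1 at 345 ± 9.84, enolase (Eno1) at 627 ± 30.3 and pyruvate kinase (Pkm) at 1119 ± 34.8. These 5 lay above their own mean in WT 1 and WT 7, and whether glycolytic genes in general did was not tested. Gpi1, Eno2, Ldha and Ldhb, also glycolytic, had biological CVs of 3.78, 3.84, 3.79 and 3.24%. Their levels by library are not reported here. The beta-actin gene Actb, another common reference, was at 644 ± 19.0 CPM. Gapdh has many processed copies of similar sequence in the mouse genome, as background, and its exons overlap Iffo1 on the other strand, so its count is uncertain. Exons of Aldoa and Tpi1 overlap Fam57b and Spsb2 in the same way.

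Lars2, the mitochondrial leucyl-tRNA synthetase gene (chromosome 9, 123366940 to 123462664, plus strand), was at 448 CPM in WT 1 and at 53.4 to 77.4 in the other 7. Its biological CV was 124% over all 8 libraries and 15% without WT 1. The mitochondrial oxidase gene mt-Co3 was at 120.2 CPM in WT 8 and at 9.39 to 18.8 elsewhere, and its biological CV was 146%, or 24.7% without WT 8. Of the adjoining protein genes, the ATP synthase gene mt-Atp6 ran from 12 CPM in WT 2 through a median of 19.0 to 32.8 in WT 8 and the complex I gene mt-Nd3 from 29.3 CPM in WT 2 through a median of 30.2 to 34.7 in WT 3. The ATP synthase gene mt-Atp8, beyond mt-Atp6, was at 26.3 CPM in WT 8, 24.5 in WT 5 and 21.5 in WT 6, and at 5.92 to 11.1 in the other 5. AC107669.1 (reference name Gm9824) was at 33.5 CPM in WT 3 and at 1.86 to 6.49 elsewhere, with a biological CV of 135%, or 42.9% without WT 3. The complex I gene mt-Nd4l was at 12.4 CPM in WT 5 and 9.91 in WT 8, and at 2.32 to 5.32 in the other 6. Rnaset2b ran from 4.23 CPM in WT 6 through a median of 6.84 to 16.6 in WT 8, and Xlr3b from 2.49 CPM in WT 6 through a median of 9.32 to 15.6 in WT 5. Their biological CVs were 70.7%, 52.0% and 50.9%, and at least 61.4%, 41.8% and 41.4% with any 1 library left out.

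Besides Gapdh, 3 genes of at least 2 CPM fell at 2 separate levels, with a gap of at least 1 on the log2 scale between them. Gm14434 was at 14.0 CPM in WT 4 and 17.2 in WT 8, and at 0.140 to 0.934 in the other 6. Gm8841 was at 3.04 to 4.28 CPM in WT 3, WT 4, WT 5 and WT 8, and at 1.09 to 1.48 in the other 4. The striatal marker Sh3rf2 was at 2.59 to 4.77 CPM in WT 3, WT 4 and WT 8, and at 0.575 to 1.14 in the other 5.

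**Figure D4:**
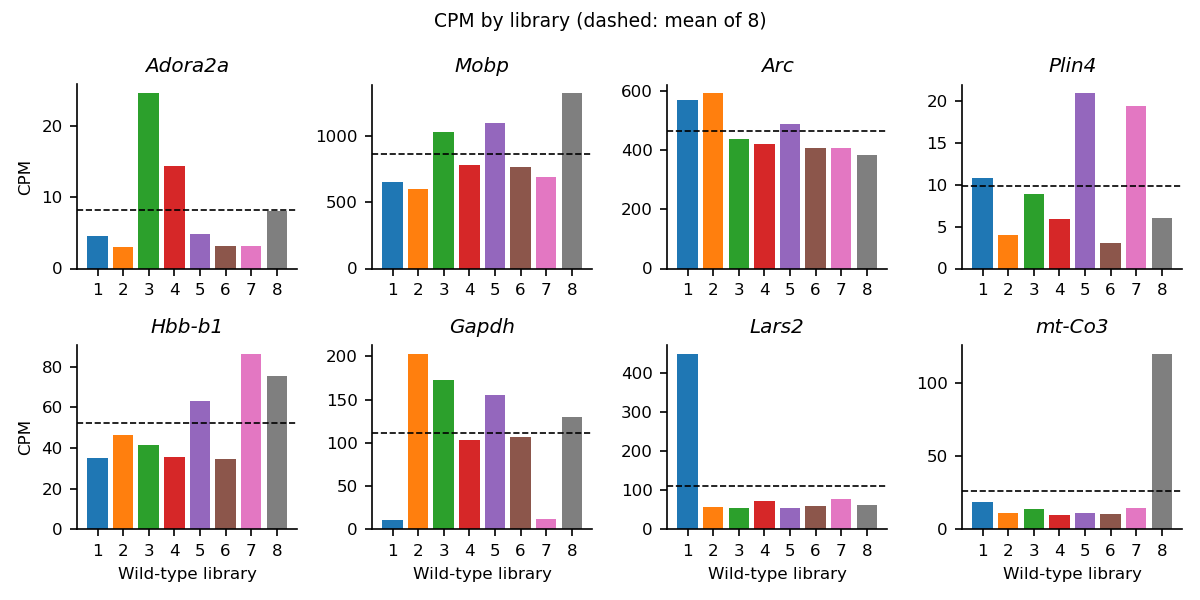
CPM of 8 genes in each wild-type library (bars from 0, dashed line: mean of 8). Adora2a was highest in WT 3 and WT 4, Mobp in WT 8, Arc in WT 1 and WT 2, Plin4 in WT 5 and WT 7 and Hbb-b1 in WT 7; Gapdh was low in WT 1 and WT 7, and Lars2 and mt-Co3 were each high in 1 library.

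**Figure D5:**
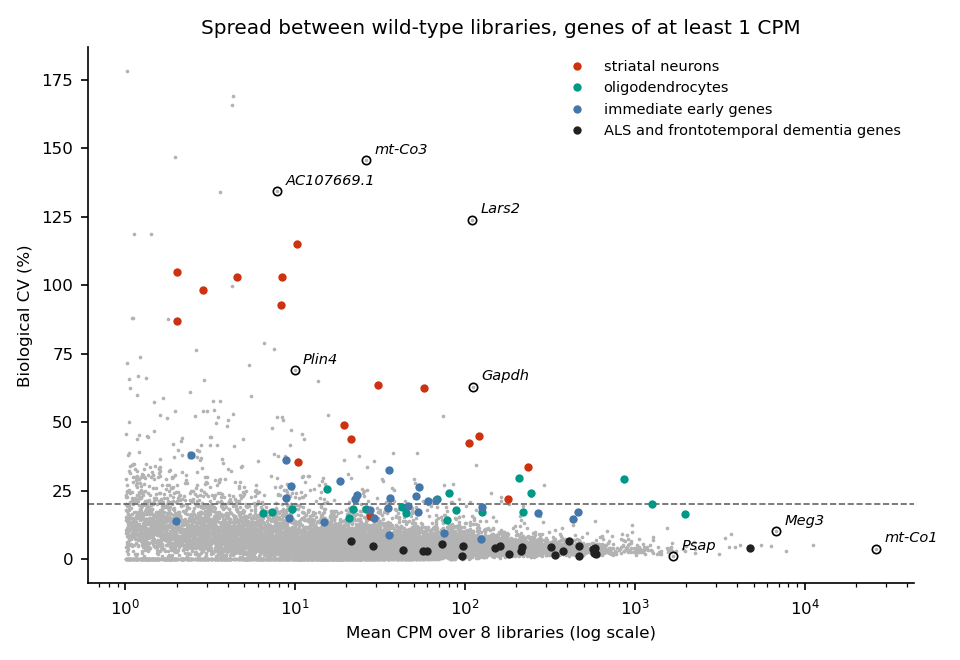
Biological CV (%) against mean CPM (log axis) of 13897 genes over 8 wild-type libraries (grey points), with members of 4 lists in colour, 8 single genes ringed and the 20% level dashed. Of the striatal markers 16 of 17 lie at 20% or above, and 0 of 24 genes linked to amyotrophic lateral sclerosis and frontotemporal dementia do, against 3.4% of all genes.

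With WT 2, WT 3 and WT 4 left out together, a choice made after the data were seen, 478 genes had a biological CV of at least 20%, against 472 with all 8 libraries. Striatal markers at 20% or above then numbered 10 of 17, with a median of 21.8%, against 3.51% of the genes of at least 1 CPM over all 8. Of the 20 most variable genes, 10 were among the 20 most variable of the other 5 libraries. Immediate early genes at 20% or above numbered 13 of 28 and blood genes 5 of 5, the same counts as with all 8 libraries. Oligodendrocyte markers at 20% or above went from 7 to 12 of 20.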

How the data were processed

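Polyadenylated RNA of 8 wild-type frontal cortex libraries was analysed from a table of raw read counts per gene that the authors deposited. Reads were trimmed with Trim Galore 0.4.3 and aligned with HISAT2 2.0.5 to GRCm38, per the submitters' processing notes. Which program counted the reads, with which annotation and strand setting, is not given in the sources used here, so genes whose exons overlap another gene on the other strand are reported as uncertain. The table held 25965 rows for 25900 identifiers, and the 122 rows of 57 identifiers that appeared more than once were summed. All count columns matched a sample, and those of the 20 other libraries were not used. Over 28 pairs of libraries and 15283 genes the chi-square per degree of freedom ran from 7.54 to 18.2, so no library was counted as a copy of another.

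CPM were computed with TMM scaling (edgeR 4.0.16, R 4.3.3), with library totals and DESeq2 1.42.0 size factors as alternatives. Gene length was the union of GENCODE vM21 exons within the deposited gene span, because for 1595 genes of at least 1 CPM that span left out over 10% of the exon length. The longest transcript and the union of all exons were alternatives, the latter added after the data were seen. The biological CV is the square root of the squared CV less its Poisson part, and was tested on simulated counts. List levels are means of log2 CPM with a prior count of 2, over members of at least 1 CPM.

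Named by rule were the 20 most abundant genes by CPM and per length, the 20 with the largest biological CV (at least 5 CPM), the 15 with the smallest CV (at least 50 CPM), genes at 2 levels (at least 2 CPM), and members of 34 lists (24 marker and 10 pathway lists, 404 of 405 genes in the table). The lists, tests and the choice of libraries were made with earlier results of these data known. Glycolytic genes, Actb and C4b were named after their values were seen. Some genes that the rule names are not reported here.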

Additional observations from a re-analysis of the deposited data

Results flagged for a closer look

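In each of the following values a single library stood apart from the other 7, its gap to the nearest of them, as a share of the whole range, being over the 95% critical value of Dixon's ratio for 8 samples. Of 187 values checked, 34 met this limit. Many of them had been named because they vary most or stand high in 1 library, so the rate of about 1 in 20 groups that chance gives does not apply to them. Over all genes of at least 1 CPM, 828 (5.96%) met it. Values are given for the library that stood apart against the nearest other library.

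WT 2 was highest for the summed levels of 3 lists, each with few members at 1 CPM. The olfactory bulb list, with 2 of 5 members at 1 CPM or more, was 9.25 against 4.81 CPM per kb, the choroid plexus list, with 3 of 14, 5.45 against 2.59 and the neuromodulatory nuclei list, with 1 of 9, 2.75 against 1.88. WT 2 was the lowest library for the striatal list. Of single genes highest in WT 2, Doc2g was at 13.4 against 5.83 CPM, Eomes at 2.62 against 1.03, Fabp7 at 34.5 against 19.6, Calb2 at 21.8 against 13.3, Npy at 82.5 against 70.0, Aqp1 at 5.53 against 0.750 and Slc47a1 at 5.19 against 2.97.

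WT 3 was highest for the striatal genes Scn4b at 423 against 239.7 CPM, Lrrc10b at 38.3 against 12.2 and Tmem90a at 28.6 against 10.1. It was also highest for Rxrg at 20.6 against 10.9 CPM, AC107669.1 at 33.5 against 6.49 and Dbp at 103 against 87.6. It was lowest for Gria3 at 330.5 against 354 CPM, Copa at 239 against 244 and the summed precursor list at 29.8 against 32.1 CPM per kb.

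WT 8 was highest for the summed interferon list, at 64.4 against 47.0 CPM per kb. It was also highest for the ependymal list, with 2 of 5 members at 1 CPM or more, at 7.80 against 4.23. Irf7 was at 3.88 against 1.95 CPM there, Ifitm3 at 9.10 against 6.20, Foxj1 at 5.74 against 3.53, Ctss at 103 against 92.0, Itgax at 0.807 against 0.499 and mt-Co3 at 120.2 against 18.8.

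WT 4 was highest for the summed mural list, at 85.1 against 79.2 CPM per kb, for Gad2 at 218 against 182 CPM and for Grin2c at 69.7 against 58.2 CPM. WT 1 was highest for Lars2, at 448 against 77.4 CPM. WT 5 was highest for Slc1a2, at 3949 against 3520.0 CPM, and lowest for the share of counts in nuclear respiratory chain genes, at 0.929 against 0.977%. WT 6 was lowest for the summed border macrophage list, with 3 of 7 members at 1 CPM or more, at 1.02 against 1.97 CPM per kb.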

How the results depend on the processing

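Scaling had little effect on means: those of 142 named genes under library totals and DESeq2 size factors moved by at most 0.356%, and 0 moved by 1 SD. A mean over 8 libraries says little of single libraries, whose values under these scalings are not given here. Under them 472 and 471 genes had a biological CV of at least 20%, and the 20 most variable genes were the same. The 20 most abundant genes took 5.73% of counts when mitochondrial genes were left out of the table, against 10.5%. A biological CV of at least 20% was reached by 3174 genes with no filter beyond 1 count, by 102 of at least 10 CPM and by 334 with edgeR tagwise dispersions, against 472, so this number depends on the lowest level admitted and on the estimate of dispersion. Leaving out each library in turn gave 13887 to 13912 genes of at least 1 CPM, 10.4 to 10.6% of counts in the 20 most abundant genes, a median biological CV of 4.43 to 4.67%, 448 to 508 genes at 20% or above and 17 to 19 genes shared with the 20 most variable. That number was 10 without WT 2, WT 3 and WT 4. With the longest transcript as length, 19 of 34 list medians moved by 1 SD or more. In each correlation setting run, 0 pairs passed the adjusted threshold. Genes at 2 levels numbered 6 from a mean of 1 CPM, against 4. Counts under about 1 CPM limit what can be said of choroid plexus, olfactory bulb and hindbrain genes. No paired analysis was possible because only 1 group was analysed.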
